A study of Mus musculus with 6 samples.

Results

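Activins are secreted dimers of inhibin beta subunits, members of the transforming growth factor beta superfamily. They bind type II and type I activin receptors, which phosphorylate the transcription factors SMAD2 and SMAD3, and follistatin binds activins with high affinity and keeps them from their receptors. Nodal, a ligand best known from the early embryo, signals through the same SMADs with the help of a co-receptor. In liver, Inhbe, which encodes the beta E subunit, is made mainly by hepatocytes. Activin A, the dimer of the Inhba product, is known to restrain hepatocyte growth, while follistatin is a liver-secreted factor that rises with glucagon.

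The genes described here are the 3 activin subunit genes Inhba, Inhbb and Inhbe, the follistatin gene Fst and the ligand gene Nodal. These are the 5 genes of that description among 389 in a table of liver transcripts, and each was taken by its symbol. RNA came from the livers of 3 mouse samples with a whole-body knockout of Usp28 (KO), which encodes a deubiquitinase, and 3 wild-type samples (WT). Mice of both genotypes were kept on a diet deficient in methionine and choline, which induces steatohepatitis. It was given for 4 weeks and began at an age of 8 weeks. No group on a control diet was analysed here, so every value below is from a liver under this diet. The labels do not state the strain, the sex or the form of the Usp28 allele, nor whether the samples of a group are separate animals, so the spread between samples may in part be technical. Below, 3 values in a row are those of replicates 1, 2 and 3 of a genotype.

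The 389 genes, and so the 5 genes here, were selected on the FPKM fold change and FDR of KO against WT. In the authors' deposited table no absolute log2 fold change is below 1.004 and no FDR is above 0.0494. The KO and WT values of the 5 genes are therefore given as a description, without a test. In the authors' deposited table the FDR was 8.52e-10 for Inhba, 1.15e-06 for Inhbb, 0.00174 for Inhbe, 0.00239 for Fst and 0.0441 for Nodal. Nodal lay closest to the limit of the selection, with 10 of the 389 genes at a larger FDR. Inhbe, at -1.40, had the log2 fold change nearest to 0 of the 5 in the authors' deposited table. Genes just outside the limit have no row and were not analysed here.

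Sequencing depth, recovered from counts and FPKM, lay between 20350000 and 24160000 reads per library. The listed genes took 8.74%, 8.81% and 5.45% of the reads in WT and 3.73% to 3.77% in KO, so that WT replicate 3 stood apart from the other WT libraries. Usp28 had no row, and the knockout could not be checked at its own transcript. None of the 10 hepatocyte markers had a row either, and the tissue label was likewise not checked. Of 14 macrophage and monocyte markers 6 had a row, and all 6 were lower in KO, beside 233 of the 389 listed genes. Markers without a row were not analysed here, and the groups overlapped for Cd14 and Lgals3. The summed level of the 6 was 30.8 to 168 FPKM in WT, highest in WT replicate 3, and 20.7 to 28.9 FPKM in KO. In WT replicate 3 Lgals3 (76.06 FPKM) and Mmp12 (53.37 FPKM) were the largest parts of it. The part of these markers in the values below was not tested. No marker of stellate cells, Kupffer cells, endothelium, bile duct, neutrophils or lymphocytes had a row. In bulk tissue, fewer cells of a type and less RNA per cell cannot be told apart.

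In KO liver 1 of the 5 transcripts, Inhba, was higher than in WT, and the other 4 were lower. All 5 passed edgeR's quasi-likelihood test at an adjusted p of 0.05, beside 99.7% of the listed genes (39.8% higher and 59.9% lower), so nothing is read from that count. FPKM is a fragment count scaled by transcript length and sequencing depth, and CPM a count scaled by depth alone. The FPKM values of the WT and KO libraries did not overlap for any of the 5, beside 93.3% of the listed genes, nor did their CPM, beside 94.3%. By group mean of FPKM, which is per length and so can be compared between genes, the order in WT was Inhbe, Inhbb, Fst, Inhba and Nodal. Inhbb and Fst overlapped in WT, as did Inhba and Nodal, and the other neighbours were apart. In KO the order was Inhbe, Inhba, Inhbb, Fst and Nodal, and there Inhbb and Fst overlapped and the other neighbours were apart. Inhba thus stood below both Inhbb and Fst in every WT library and above both in every KO library.

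**Figure D1:**
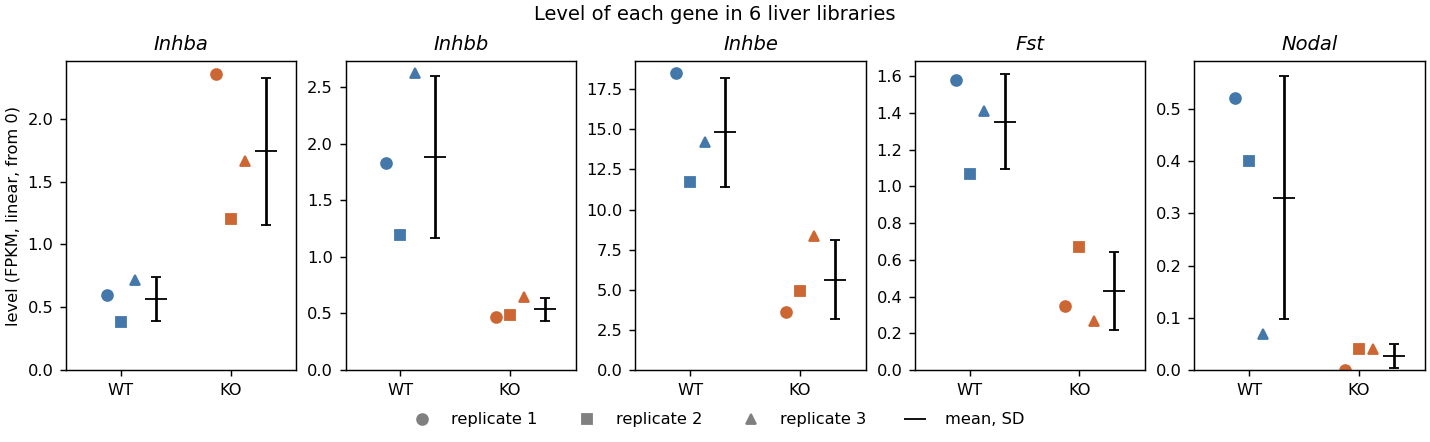
Level of Inhba, Inhbb, Inhbe, Fst and Nodal (vertical axes, FPKM, linear from 0) in the 3 WT and 3 KO libraries; symbols mark the replicate, and the bar beside each group is the mean with its SD. Inhba is higher and the other 4 are lower in every KO library than in every WT library, with WT replicate 3 of Nodal close to the KO libraries.

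Inhbe (ENSMUSG00000047492, GRCm38 chromosome 10, 127348857 to 127354411, minus strand) was the most abundant of the 5. Its level was 18.48, 11.72 and 14.21 FPKM in WT, from 2002, 1506 and 1538 reads. In KO it was 3.59, 4.92 and 8.36 FPKM, from 398, 579 and 970 reads. The WT libraries were all above the KO libraries, and KO replicate 3 lay nearest to WT. The mean was 14.8 ± 3.42 FPKM in WT and 5.62 ± 2.46 in KO (SD over 3 libraries), 2.63-fold lower in KO, with a log2 fold change of -1.40 ± 0.38 (SE) in edgeR. Without KO replicate 3 the log2 fold change was -1.80, and without KO replicate 1 it was -1.16. Scaling moved it more, to -0.79 with TMM factors and -0.70 with RLE factors. Both assume that the typical listed gene is equal in the groups. With the sum of listed counts as library size, which takes their total as equal, the log2 fold change was -0.43. The same 3 settings gave -1.18, -1.15 and -0.94 for Inhbb, -1.30, -1.21 and -0.94 for Fst, -2.85, -2.70 and -2.28 for Nodal, and 2.91, 2.94 and 3.16 for Inhba, each to be set beside the values below.

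Inhbe has been described as a target of the stress-regulated factors ATF4 and CHOP, which bind the C/EBP-ATF response element. The stretch of the Inhbe promoter that matches this element is shown because the stress genes with a row and Inhbe differed in opposite directions in these livers. It is taken from RefSeq (GRCm38.p6), on the minus strand at chr10:127352011-127352040, with the match in capitals.
Inhbe: catcctctttcTTGCATCAtgcatgtccac
The element was searched as TGATGNAA on both strands in the 250 bases before each RefSeq transcript start. The match, which reads TGATGCAA on the other strand, lies 181 to 174 bases before the Inhbe start. In GENCODE M21, where Inhbe starts farther upstream, the same bases lie within its first exon. Of 32851 promoters 3.45% held a match, as did 2.96% of the 371 promoters of listed genes. Inhba, Inhbb and Nodal each had 1 promoter in the RefSeq table and no match. No match was found in these 4 promoters for the cAMP response element TGACGTCA, the SMAD palindrome GTCTAGAC or the direct repeat 1 element bound by PPAR and RXR, held by 1.55%, 0.167% and 0.0335% of all promoters. A match of letters is a description and not a binding site.

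Of a list of 23 genes of the ATF4 and CHOP response, 4 had a row: Atf4, Ddit3, Chac1 and Inhbe. Inhbe was the 1 that was lower in KO, as were 233 of all 389 listed genes. Atf4, which encodes the central transcription factor of the response, stood at 31.85, 22.13 and 61.51 FPKM in WT and at 68.18, 76.48 and 89.48 FPKM in KO. Ddit3, which encodes CHOP, stood at 3.22, 3.72 and 9.75 FPKM in WT and at 8.40, 10.64 and 19.16 FPKM in KO. The groups overlapped for Ddit3, since WT replicate 3 was above KO replicate 1. Chac1, the gene of an enzyme that breaks down glutathione, was at 0.57, 0.51 and 1.92 FPKM in WT. In KO its level was 2.64, 15.73 and 18.17 FPKM. Like that of Inhbe, the RefSeq promoter of Chac1 held a match to TGATGNAA, whereas those of Atf4 and Ddit3 held none. Within KO, replicate 1 was the lowest of the 3 libraries for Inhbe and for all 3 stress genes, and replicate 3 was the highest for all 4. Within WT, replicate 3 was the highest for the 3 stress genes, whereas replicate 1 was the highest for Inhbe.

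Inhbb (ENSMUSG00000037035, GRCm38 chromosome 1, 119415465 to 119422248, minus strand) encodes the beta B subunit, which forms activin B. It stood at 1.83, 1.19 and 2.62 FPKM in WT, from 159, 122 and 227 reads. In KO it stood at 0.47, 0.49 and 0.65 FPKM, from 42, 46 and 60 reads. The 3 KO libraries were close to each other, and WT replicate 3 was the highest of all. The mean was 1.88 ± 0.716 FPKM in WT and 0.537 ± 0.0987 in KO (SD over 3 libraries), 3.503-fold lower in KO, and the edgeR log2 fold change was -1.81 ± 0.39 (SE). Without WT replicate 3 it was -1.49.

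Inhba (ENSMUSG00000041324, GRCm38 chromosome 13, 16011851 to 16031621, plus strand), which encodes the beta A subunit, went the other way. It had 46, 37 and 63 reads in WT and 314, 167 and 232 reads in KO. Scaled by recovered depth this was 2.26, 1.53 and 3.10 CPM in WT and 15.1, 7.55 and 10.6 CPM in KO. The lowest KO library was above the highest WT library, and their exact 95% Poisson intervals, 6.45 to 8.78 in KO replicate 2 and 2.38 to 3.96 in WT replicate 3, were apart. Such intervals cover counting error only. The mean was 4.83-fold higher in KO by CPM, with an edgeR log2 fold change of 2.27 ± 0.40 (SE). It ranged from 1.99 without KO replicate 1 to 2.55 without WT replicate 3.

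The FPKM of Inhba gave a smaller difference than its counts. It was 0.60, 0.38 and 0.72 in WT and 2.36, 1.20 and 1.66 in KO. The means of 0.567 ± 0.172 and 1.74 ± 0.584 FPKM (SD over 3 libraries) differed 3.07-fold, a log2 ratio of 1.62, against 2.27 from CPM. For Inhbb the same 2 log2 ratios were -1.81 and -1.81, for Inhbe -1.40 and -1.40, for Fst -1.89 from counts and -1.65 from FPKM, and for Nodal -3.50 and -3.63. Counts and FPKM therefore gave the same ratio for Inhbb and Inhbe and parted for Inhba and Fst. Nodal has 1 annotated transcript. Its gap of 0.13 lay within the rounding of FPKM to 2 decimals, at 0.04 FPKM in KO replicates 2 and 3. The median absolute gap over 387 listed genes, with no minimum on FPKM, was 0.0079 on the log2 scale. A larger gap than the 0.65 of Inhba was found in 3 of them, and a larger one than that of Fst in 16.

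**Figure D2:**
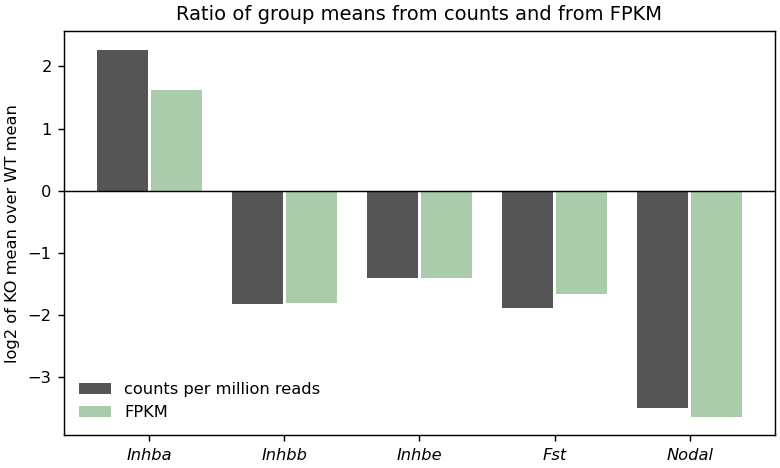
Log2 of the ratio of group means, KO over WT (vertical axis), for each gene, from CPM (dark bars) and from FPKM (light bars). The bars of Inhbb and Inhbe are level, while Inhba stands at 2.27 from counts and 1.62 from FPKM.

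CPM divided by FPKM gives the transcript length that the FPKM assumed. For genes with 1 annotated transcript this implied length followed the GENCODE M21 annotation, and did so for short and long transcripts alike, with a median ratio of 0.99994 over 25 genes under 2000 bases and 0.99995 over 28 longer ones. The depth had been set on such genes, so this compares short with long ones and is no check of the depth itself. The median implied length was 4250 bases for Inhbb, annotated at 4255, and 5318 bases for Inhbe, annotated at 5319. Inhba has 2 annotated protein-coding transcripts, Inhba-201 of 6390 bases and Inhba-202 of 1529 bases. Its implied length was 3.76, 4.03 and 4.30 kb in WT, and 6.38, 6.29 and 6.41 kb in KO. The KO values lay at the length of Inhba-201 and the WT values between the 2 transcripts.

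The gap in implied length was wider than the rounding of FPKM to 2 decimals allows, which gives at most 4.33 kb in WT and at least 6.26 kb in KO. Among 344 listed genes with at least 0.2 FPKM in every library, the groups' implied lengths lay apart, beyond rounding, in 11.3%. None of the other 343 had as large a shift as the log2 ratio of 0.66 (1.58-fold) of Inhba, and the median absolute shift was 0.0072. The 344 include 53 genes with 1 annotated transcript, whose length is the same in every library. They could not lie apart beyond rounding, and none did, so they are no background for Inhba. Both the 11.3% and the median include them. The shift of Inhba kept its size when any 1 library was left out (0.61 to 0.71).

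If the gene's FPKM is the sum over these 2 transcripts at their annotated lengths, count and FPKM fix how many reads each was given. The short transcript then took 10.1, 6.81 and 9.63 reads in WT, which is 15.3% to 21.9% of the gene's reads. Because it is short, this made up 54.0%, 48.5% and 43.0% of the gene's molecules. In KO it took 0.18, 0.847 and 0 reads. The value of KO replicate 3 was set to 0, because its implied length of 6.405 kb was above the 6390 bases of Inhba-201, within rounding. On this arithmetic the level of the long transcript was 0.294 FPKM in WT and 1.73 in KO, a log2 ratio of 2.56. The assignment of reads to transcripts is the authors', and values per transcript were not analysed here. Inhba overlaps B230303A05Rik and Gm48444 on the other strand, as Inhbe does Gm47200 and Fst does Gm47040. These are overlaps of whole gene spans, and exons were not compared. Where exons are shared, reads of such pairs can be told apart only by strand. The use of strand is not given in the sources used here.

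**Figure D3:**
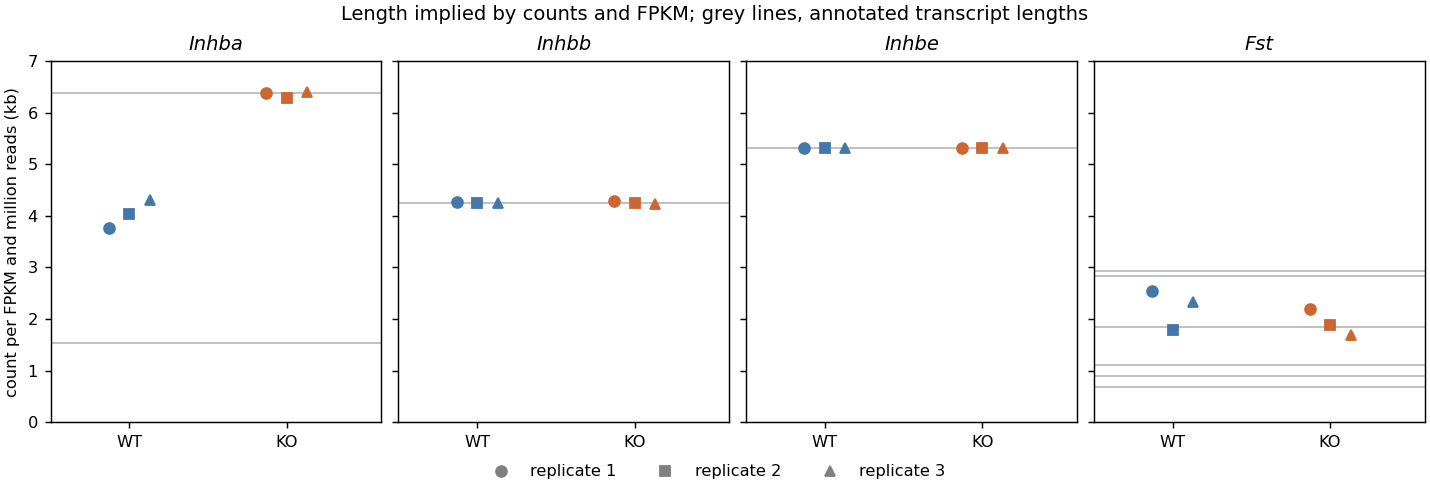
Length implied by count, FPKM and depth (vertical axis, kb) for Inhba, Inhbb, Inhbe and Fst in each WT and KO library; grey lines are the lengths of the annotated transcripts. Inhba lies at 3.76 to 4.30 kb in WT and at 6.29 to 6.41 kb in KO, while Inhbb and Inhbe lie on their single annotated length in all 6 libraries.

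The same reading bears on the level of Inhbe. The annotated Inhbe start lies 2563 bases upstream of the RefSeq start used for the promoter above, within a single first exon. A transcript from the RefSeq start would be 2756 bases long, and the FPKM of Inhbe would then be 1.93 times as high in every library. The ratio between KO and WT does not depend on this length, and Inhbe is the most abundant of the 5 at either.

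Fst (ENSMUSG00000021765, GRCm38 chromosome 13, 114452290 to 114458951, minus strand), the gene of the activin-binding protein, was lower in KO. It had 82, 46 and 67 reads in WT and 16, 28 and 10 reads in KO. Its level was 1.58, 1.07 and 1.41 FPKM in WT and 0.35, 0.67 and 0.27 FPKM in KO. The groups did not overlap, although the exact 95% Poisson intervals of WT replicate 2 (1.39 to 2.54 CPM) and KO replicate 2 (0.841 to 1.83) did. The mean was 1.35 ± 0.260 FPKM in WT and 0.430 ± 0.212 in KO (SD over 3 libraries), 3.15-fold lower in KO, and the edgeR log2 fold change on counts was -1.88 ± 0.52 (SE). The largest fold was found without KO replicate 2 (log2 fold change -2.32) and the smallest without KO replicate 3 (-1.59).

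Fst has 6 annotated transcripts of 673 to 2921 bases, so its reads could not be divided among them. Its implied length was 2.55, 1.78 and 2.34 kb in WT, and 2.19, 1.89 and 1.70 kb in KO. These values varied within both groups and, unlike those of Inhba, overlapped between them. In WT replicate 2, CPM was 47.3% of those in WT replicate 1 while FPKM was 67.7%, so the rank of WT replicate 2 as the lowest WT library held on both scales.

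Nodal (ENSMUSG00000037171, GRCm38 chromosome 10, 61417972 to 61425338, plus strand) was at the edge of detection. It had 22, 20 and 3 reads in WT and 0, 2 and 2 reads in KO. Its level was 0.52, 0.40 and 0.07 FPKM in WT, while KO replicate 1 was at 0 and KO replicates 2 and 3 were at 0.04 FPKM each. WT replicate 3 was thus next to the KO libraries and far from the other WT libraries. Summed over libraries this was 45 reads in WT and 4 in KO, and 42 of the 45 were in WT replicates 1 and 2. The edgeR log2 fold change, -3.36 ± 1.05 (SE), became -3.83 without WT replicate 3 and -2.84 without KO replicate 1. With 0 to 22 reads per library, the fitted value depends on the small count that edgeR adds.

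The 3 subunit genes together summed to 20.9, 13.3 and 17.6 FPKM in WT and to 6.42, 6.61 and 10.7 FPKM in KO. Inhba made up 3.28% ± 0.715 of this sum in WT and 23.5% ± 11.6 in KO (SD over 3 libraries). KO replicate 1 had the largest share, 36.8%, and KO replicates 2 and 3 had 18.2% and 15.6%, against 2.86% to 4.10% in WT. Inhbe made up 85.8% ± 4.22 in WT and 69.6% ± 11.98 in KO, and Inhbb 10.9% ± 3.51 in WT and 6.94% ± 0.738 in KO. Inhbe was the largest part in every library of both genotypes. Inhba was selected as higher in KO and Inhbb and Inhbe as lower, so a larger share of Inhba in KO follows from the selection. These are shares of transcripts, not of protein dimers.

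Relative to follistatin, the subunits parted. The ratio of Inhba to Fst, in FPKM, was 0.380, 0.355 and 0.511 in WT and 6.74, 1.79 and 6.15 in KO. Every KO ratio was above 1 and every WT ratio below it. Inhba passed the selection on FPKM as higher in KO and Fst as lower, so a higher ratio in KO follows from the selection. Inhbb and Inhbe, like Fst, passed it as lower. The ratio of Inhbb to Fst was 1.16, 1.11 and 1.86 in WT and 1.34, 0.731 and 2.41 in KO, so the groups overlapped. The ratio of Inhbe to Fst was 11.7, 10.95 and 10.1 in WT and 10.3, 7.34 and 31.0 in KO, again with overlap, and with KO replicate 3 far above the other 5 libraries. Its log2 ratio of KO over WT turned from 0.57 to -0.31 without KO replicate 3, in which Fst had 10 reads.

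**Figure D4:**
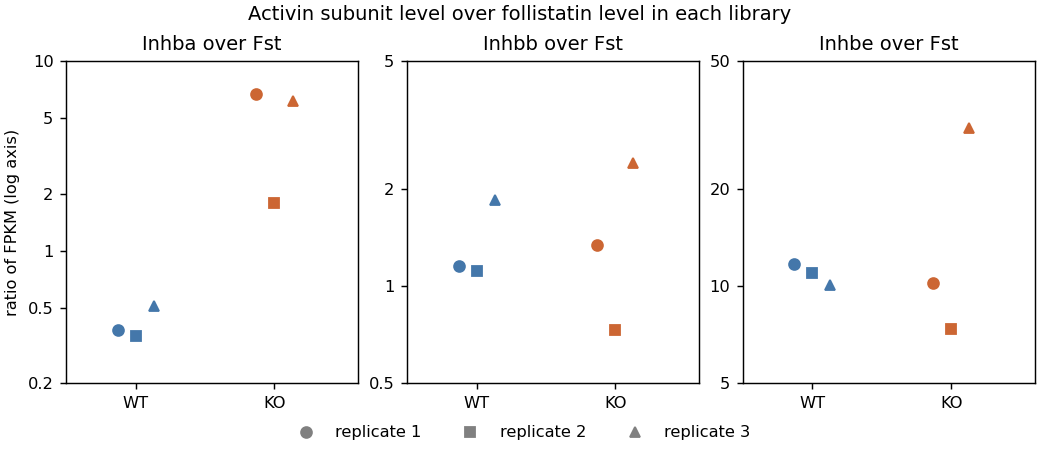
Ratio of the FPKM of Inhba, Inhbb and Inhbe to that of Fst (vertical log axes) in the 3 WT and 3 KO libraries, with symbols for the replicate. For Inhba the KO libraries (1.79 to 6.74) lie above the WT libraries (0.355 to 0.511), while for Inhbb and Inhbe the groups overlap. Inhba was selected as higher in KO, and Inhbb, Inhbe and Fst as lower.

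The rest of the pathway was sparse in this table. Of 31 ligand genes of the superfamily 4 had a row, all of them among the 5 genes here, and of 24 genes of binding proteins and antagonists Fst was the 1 with a row. None of 22 symbols of receptors and co-receptors, aliases of the same gene included, had a row, and none of 17 genes of SMADs and their partners. Since the table holds genes selected for a difference, no level of a receptor or SMAD can be given. Of 27 symbols, aliases included, of genes often used as targets of SMAD signalling, 5 had a row, 1 higher and 4 lower in KO. Their median log2 fold change was -1.28, beside 156 higher and 233 lower and a median of -1.10 over all 389.

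Among these, Id1, a target of the related bone morphogenetic proteins that encodes an inhibitor of helix-loop-helix factors, stood at 42.16, 45.95 and 66.99 FPKM in WT and at 15.87, 25.81 and 22.40 FPKM in KO, and its groups did not overlap. Cdkn1a, which encodes the cell cycle inhibitor p21 and has many other regulators, stood at 25.41, 73.94 and 65.40 FPKM in WT and at 22.51, 16.19 and 29.64 FPKM in KO, with WT replicate 1 inside the KO range. Timp1, which encodes a metalloproteinase inhibitor, was at 3.55 FPKM in WT replicate 3 and between 0.05 and 0.45 FPKM in the other 5 libraries. Hamp2, a gene of the hepcidin family, was the 1 higher gene, at 20.5 to 85.9 FPKM in WT and 167 to 295 FPKM in KO.

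Inhbe and Fst also belong to a list of 29 symbols of secreted liver factors, aliases included, of which 8 had a row. In KO 3 of these were higher and 5, Inhbe and Fst among them, were lower (median log2 fold change -1.64). Over all 389 listed genes 156 were higher and 233 lower, with a median of -1.10. Angptl8, whose product regulates lipoprotein lipase, was higher, with a mean of 240 FPKM in KO against 96.1 FPKM in WT. Serpina6, which encodes corticosteroid-binding globulin, was also higher, at 27.9 to 64.0 FPKM in WT and 114 to 183 FPKM in KO. Gpnmb, Il1rn and Lcn2 were lower with Inhbe and Fst. Inhbe, at 14.8 FPKM in WT, was thus a minor transcript beside Angptl8.

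Profiles over the 6 libraries were compared by the root mean square difference of log2(FPKM + 0.1), each gene centred on its own mean. The genes closest to Inhba were Depdc7 (0.22) and Anks4b (0.23), against a median of 1.34 over all listed genes. On counts, the edgeR log2 fold changes of Depdc7 and Anks4b were 1.14 and 1.32, against 2.27 for Inhba. On log2(FPKM + 0.1), the scale of the profiles, limma gave 1.45 for Inhba. Those closest to Inhbb were Tox (0.18) and Kctd17 (0.21), and those closest to Inhbe were Marveld3 (0.24) and Plin2 (0.27), which encodes a lipid droplet coat protein. Enc1 (0.22) and Nceh1 (0.26), which encodes a cholesterol ester hydrolase, were closest to Fst. Fam222a (0.21) was among the 2 closest to Nodal, though its edgeR log2 fold change was -1.56 against -3.36 for Nodal. On the scale of the profiles limma gave -1.58 for Nodal. Like Nodal, Fam222a was higher in WT replicates 1 and 2 (2.80 and 2.42 FPKM) than in WT replicate 3 (0.69 FPKM), which lay within the KO range of 0.57 to 0.79 FPKM. Among the 5 genes themselves, Inhbb and Inhbe had the closest profiles (0.37), and Inhba was 1.55 to 1.74 from the others. All listed genes were selected on the difference between genotypes, which every one of these profiles therefore contains.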

How the data were processed

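Liver RNA from 3 Usp28 knockout and 3 wild-type samples was sequenced. Libraries were made with a NEBNext Ultra kit after Trizol extraction, per the labels' protocols. The submitters' processing notes name fastp 0.18.0, HISAT2, StringTie 1.3.1 and RSEM. The role of each, the genome build, the annotation and strandedness were not given in the sources used here. For 389 selected genes the authors deposited read counts and FPKM of each sample, per the file headers. The authors also deposited the log2 fold change of mean FPKM, a p-value and an FDR, whose test is not given.

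Of the 389 gene IDs, 388 matched GENCODE M21 (GRCm38), which gave positions and transcript lengths. Depth was recovered from the genes with a single annotated transcript (38 to 51 per library, each with 50 counts or more and 1 FPKM or more), by taking the median ratio of a gene's count to FPKM times length. It is the base of CPM and of implied lengths. Counts of all 389 genes were fitted with edgeR 4.0.16 (R 4.3.3) by its quasi-likelihood test. Library sizes were the recovered depths, unscaled and unfiltered, and p-values were adjusted by Benjamini-Hochberg over the table. The design foresaw this fit. SE is the absolute log2 fold change over the square root of the F statistic. DESeq2 1.42.0, limma 3.58.1 (pseudocounts 0.1 and 1 FPKM), other scalings, a filter of 10 counts in 3 libraries, a replicate block and leaving out each library were alternatives. The fits were tested on simulated counts. Poisson intervals are exact. Named genes were the 5 genes, every gene of the pathway, secreted factor and stress lists with a row, and for each of the 5 the 2 genes with the closest profile. Some genes that this rule names are not reported here. The values of Fam222a by library were added after they were seen. The 5 genes and the lists were chosen with earlier results of these data known. Protein sequences were not used here, and Fst had no entry in the promoter table.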

Additional observations from a re-analysis of the deposited data

How the results depend on the processing

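No setting turned the direction of any of the 5 genes, which had been selected for a difference. Some factors assume that the typical listed gene is equal in both groups. They moved the median log2 fold change of all listed genes from -1.10 to -0.53 (TMM) or -0.45 (RLE and DESeq2's own factors). The sum of listed counts as library size, which takes their total as equal, moved it to -0.13. The 5 genes moved with the median. In the order TMM, RLE, listed sum and DESeq2's own factors, the log2 fold change of Inhba was 2.91, 2.94, 3.16 and 2.94. That of Inhbb was -1.18, -1.15, -0.94 and -1.15, and that of Inhbe -0.79, -0.70, -0.43 and -0.70. Fst was at -1.21 (RLE), -0.94 (listed sum) and -1.22 (DESeq2's own factors). The number of listed genes past an adjusted p of 0.05 was 388 (155 higher, 233 lower), and 250, 236, 181 and 239 in the same order, of which 62.4%, 66.1%, 85.1% and 65.3% were higher, against 39.9% before.

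limma on log2(FPKM + 0.1) gave 1.45 for Inhba and -1.58 for Nodal. With a pseudocount of 1 FPKM it gave 0.79 for Inhba, -0.88 for Inhbb, -0.72 for Fst and -0.36 for Nodal, since a pseudocount near the level of a gene shrinks its fold. Leaving out 1 library gave 1.99 to 2.55 for Inhba, -2.05 to -1.49 for Inhbb, -1.80 to -1.16 for Inhbe, -2.32 to -1.59 for Fst and -3.83 to -2.84 for Nodal, and 279 to 372 listed genes called. The log2 ratio of Inhba to Fst, KO over WT, was 3.56 from FPKM, 4.40 from counts and 3.26 to 3.96 without 1 library. That of Inhbe to Fst ran from -0.31 to 0.92 and that of Inhbb to Fst from -0.41 to 0.45 without 1 library. Nodal has no value under the filter of 10 counts in 3 libraries. The reads of the long Inhba transcript alone, chosen after seeing the data, gave 2.56.

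The labels number replicates 1 to 3 in both groups, but same-numbered samples did not deviate together (Pearson r of 0.014, 0.076 and -0.042 across 389 genes, which are not independent replicates). With the replicate block the log2 fold change was 2.27 for Inhba, -1.75 for Inhbb, -1.45 for Inhbe, -1.90 for Fst and -3.18 for Nodal, and 382 listed genes were called. Depth limits Nodal and, in KO, Fst.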
